A study of Mus musculus with 4 samples.

Results

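The core-binding factor is described here through 5 genes of 48587 in the count table, namely Cbfb and the RUNX-related genes Runx1, Runx2, Runx3 and Runx1t1. Cbfb was chosen by its lower level with the hairpin against Mettl14 in these same libraries, and the other 4 genes were added because they belong to the same complex or carry the Runx name. The values of Cbfb are therefore a description without a test, whereas the RUNX genes were tested in the fit across all genes. The data are mRNA-seq counts of primary mouse vascular smooth muscle cells (VSMCs), grown out of the descending aorta of young adult wild-type C57BL/6J mice after the endothelium had been scraped off. The cells were infected with a lentivirus that expressed either a nontargeting hairpin against a plant microRNA sequence (shCTR) or a hairpin against Mettl14 (shMettl14), a subunit of the complex that writes N6-methyladenosine (m6A) on mRNA. Both groups thus carried a lentiviral vector, were kept in serum-containing medium and were collected 2 days after the virus was replaced by fresh medium. Each group had 2 libraries, which carry the letters A and B, and 1 hairpin sequence against Mettl14 was used, without a second hairpin or a rescue in these libraries. Nothing states that the libraries of a group came from separate cultures, so the p-values measure only the spread between these libraries. The letters differed in both groups, for example for Dlx6, with 1601 and 11 counts in shCTR A and B. Dlx6 had 1753 and 16 counts in shMettl14 A and B. What the letters stand for was not tested.

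CBFB is the subunit of the core-binding factor that does not touch DNA. It binds the Runt domain of RUNX1, RUNX2 or RUNX3, raises the affinity of that protein for DNA and protects it from degradation. RUNX1 is a master regulator of blood formation, RUNX2 of bone formation, and RUNX3 acts in T cells and sensory neurons. In arteries RUNX2 is known for its role in the calcification of smooth muscle cells. RUNX1T1, also called ETO, is a co-repressor without a Runt domain that is known from its fusion to RUNX1 in leukaemia. CBFB is itself fused to the smooth muscle myosin MYH11 in another form of leukaemia.

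The 5 genes lie on 4 chromosomes of GRCm38, the build to which the reads were mapped, and their places were read from GENCODE M21. Cbfb (ENSMUSG00000031885) lies on the plus strand of chromosome 8 from 105170674 to 105217989, and its chosen transcript has 6 exons and a 3′ UTR of 2017 bases. Runx1 (ENSMUSG00000022952) lies on the minus strand of chromosome 16 from 92601466 to 92826149, and Runx2 (ENSMUSG00000039153) on the minus strand of chromosome 17 from 44495987 to 44814797. Runx3 (ENSMUSG00000070691) and Runx1t1 (ENSMUSG00000006586) are both on the plus strand of chromosome 4, from 135120652 to 135177990 and from 13743436 to 13893649. No other gene overlaps the exons of Cbfb, Runx3 or Runx1t1. Of the exon bases of Runx2, 5.87% overlap Runx2os1 on the other strand, and of those of Runx1, 0.88% overlap Gm26626. The kit kept strand, but the strand setting of the counting is not given in the sources used here, so that reads of these overlapping stretches may not be told apart.

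Short stretches of the mRNAs are shown because 2 sequence words bear on this experiment. The first word, GTGTTAA, was singled out earlier as the 3′ UTR word whose carriers were lowest with shMettl14 in these same 4 libraries, so that its presence in Cbfb is not independent evidence. The sequence of the hairpin was not used here, and whether the word matches it was not tested. The second word, GGACT, is a common sequence context of m6A, the mark that Mettl14 helps to write. Both words were searched on the transcript strand only, the first in the 3′ UTR and the second in the whole transcript. Each window of 29 bases is written 5′ to 3′ as the transcript reads, with the word in capitals. The 2 copies of GTGTTAA in the 3′ UTR of Cbfb lie 858 and 1705 bases past the stop codon (plus strand, words at chr8:105216830-105216836 and chr8:105217677-105217683), and the single copy in Runx2 lies 46 bases past its stop codon (minus strand, chr17:44607853-44607859).
Cbfb, GTGTTAA nearer the stop codon: acaggtaaattGTGTTAAaataatgttta
Cbfb, GTGTTAA farther from the stop codon: aagatcacatgGTGTTAAtgtggccgtcc
Runx2, GTGTTAA: acatcccgcatGTGTTAAtatatacatat
The 2 copies of GGACT in Cbfb are both in the 3′ UTR, 94 and 1045 bases past the stop codon (chr8:105216066-105216070 and chr8:105217017-105217021).
Cbfb, GGACT nearer the stop codon: tgacaactggagGGACTgcagttggtttc
Cbfb, GGACT farther from the stop codon: tattttacaaaaGGACTattaatagtgcc

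GTGTTAA was found in the 3′ UTR of 1472 of 13907 tested genes with a 3′ UTR of at least 50 bases, which is 10.58%, and at least 2 copies, as in Cbfb, were found in 1.5%. Among the 962 3′ UTRs whose length is within 10% of that of Cbfb, 14.86% held the word. All 4 coding transcripts of Cbfb with an annotated stop codon held GTGTTAA in the 3′ UTR, as did 6 of 7 of Runx2. Runx1, Runx3 and Runx1t1 had it in none of their 4, 2 and 4 coding transcripts. GGACT was much more common and was found in 92.46% of the transcripts and 60.95% of the 3′ UTRs. Cbfb had 0.694 copies of GGACT per kilobase of transcript, Runx1 1.02, Runx2 0.678, Runx3 0.772 and Runx1t1 0.904, against a median of 1.06 over all transcripts, so that all 5 genes were below the median gene. A match is a match of letters, and no binding or m6A was measured in these counts.

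Totals were between 114343653 and 124815868 counts per library, and 3 counts were taken as the upper limit for a gene counted 0 times. This floor is 0.0240 to 0.0262 CPM, the counts scaled to a common library size, and it covers counting error only. Levels below are CPM normalized by edgeR's TMM method. Mettl14, the gene that the hairpin targets, had 2050 and 2154 counts in shCTR A and B and 546 and 568 counts in shMettl14 A and B, so that it was below both controls in both libraries, at 23.6% of the shCTR level. In edgeR's quasi-likelihood fit Mettl14 differed by −2.08 ± 0.25 (log2 fold change and standard error), with an unadjusted p of 0.00039 and an adjusted p of 1.0. The adjusted p was under 0.05 for 0 of the 18916 genes tested, whereas 191 were lower and 124 higher at an unadjusted p under 0.05. All 9 smooth muscle markers were tested. Their summed levels were 6820 and 5790 CPM in shCTR A and B and 4470 and 4830 CPM in shMettl14 A and B. Acta2 (2070 to 3550 CPM) and Tagln (1620 to 2450 CPM) made up most of these sums. Myocd (0.546 to 7.1 CPM) and Des (0.623 to 2.56 CPM) were low. Within both letters 6 of the 9 were lower and 1 was higher with shMettl14, against 27.7% and 30.0% of all genes tested. All 8 endothelial markers were tested. Emcn, Cdh5, Pecam1, Tie1 and Erg were abundant, whereas Kdr, Tek and Vwf were between 5.04 and 18.9 CPM. The summed level of the 8 was 1920 and 4070 CPM in shCTR A and B and 1810 and 2520 CPM in shMettl14 A and B, so that it was higher in letter B. Emcn alone was at 649 and 2100 CPM in shCTR A and B and 484 and 1080 CPM in shMettl14 A and B. Only Tie1 was lower in letter B, at 171 and 136 CPM with shCTR and 158 and 134 CPM with shMettl14. The osteoblast or chondrocyte markers summed to 241 and 414 CPM in shCTR A and B and 194 and 305 CPM in shMettl14 A and B, most of it from the cartilage genes Col2a1 (between 115 and 348 CPM) and Acan (between 23.9 and 76.9 CPM). Leukocyte markers summed to between 11 and 15 CPM in the 4 libraries, with 7 of 13 tested. The part of endothelial RNA in the values of the 5 genes was not tested, and in bulk RNA fewer cells of a type cannot be told apart from less RNA per cell.

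Cbfb, which was picked for its lower level with shMettl14, was lower within both letters. It had 5559 and 5526 counts in shCTR A and B and 2207 and 2667 counts in shMettl14 A and B, which are 48.9 and 51.2 CPM against 18.6 and 20.5 CPM. The libraries of each group lay close together and the groups did not overlap. The mean was 50.1 ± 1.57 CPM with shCTR and 19.5 ± 1.36 CPM with shMettl14 (SD, n = 2 libraries each), so that the shMettl14 level was 39.1% of the shCTR level. This is a log2 fold change of −1.36 with a standard error of 0.20, and the ratio on the log2 scale was −1.40 between the A libraries and −1.32 between the B libraries. Among the 9098 tested genes with a mean of at least 10 CPM, Cbfb ranked 6 from the lowest log2 fold change, and it ranked 4 when each gene was placed by the weaker of its within-letter ratios. Since Cbfb was picked for this difference, the lack of overlap, the fold change beside its standard error and these ranks describe the choice.

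Of these 9098 genes, 11 had a log2 ratio under −1 within both letters, Cbfb and Mettl14 among them. The 3′ UTR held GTGTTAA in 10 of these 11 genes, and the exception was Mettl14, the intended target, with 0 copies. The word was chosen on these same libraries, so this count is a description and was not tested. The 5 genes whose profile over the 4 libraries was nearest to that of Cbfb, by Euclidean distance of log2 CPM centred on each gene's mean, were Atp6v1a (distance 0.227), Ammecr1 (0.304), Chst12 (0.310), G3bp2 (0.328) and Ankrd1 (0.374). They held GTGTTAA in the 3′ UTR, Atp6v1a with 2 copies and the other 4 with 1 copy each. This is not a separate observation, since Atp6v1a, Ammecr1, Chst12 and G3bp2 are among the 11 genes above. Ankrd1, with a log2 ratio of −0.91 within letter B, is not among them. Ammecr1 was at 13.7 and 17.4 CPM in shCTR A and B and 5.95 and 7.68 CPM in shMettl14 A and B, a log2 fold change of −1.19 (standard error 0.29). G3bp2, a stress granule protein, was at 60.7 and 65.2 CPM against 29.9 and 31.5 CPM in the same order, a log2 fold change of −1.03 (standard error 0.19). Ankrd1, a cardiac ankyrin repeat protein that is also a target of YAP, was at 756 and 670 CPM against 342 and 356 CPM, with the same log2 fold change of −1.03 (standard error 0.19). In each of these genes the groups did not overlap, which the likeness to Cbfb fixes.

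**Figure D1:**
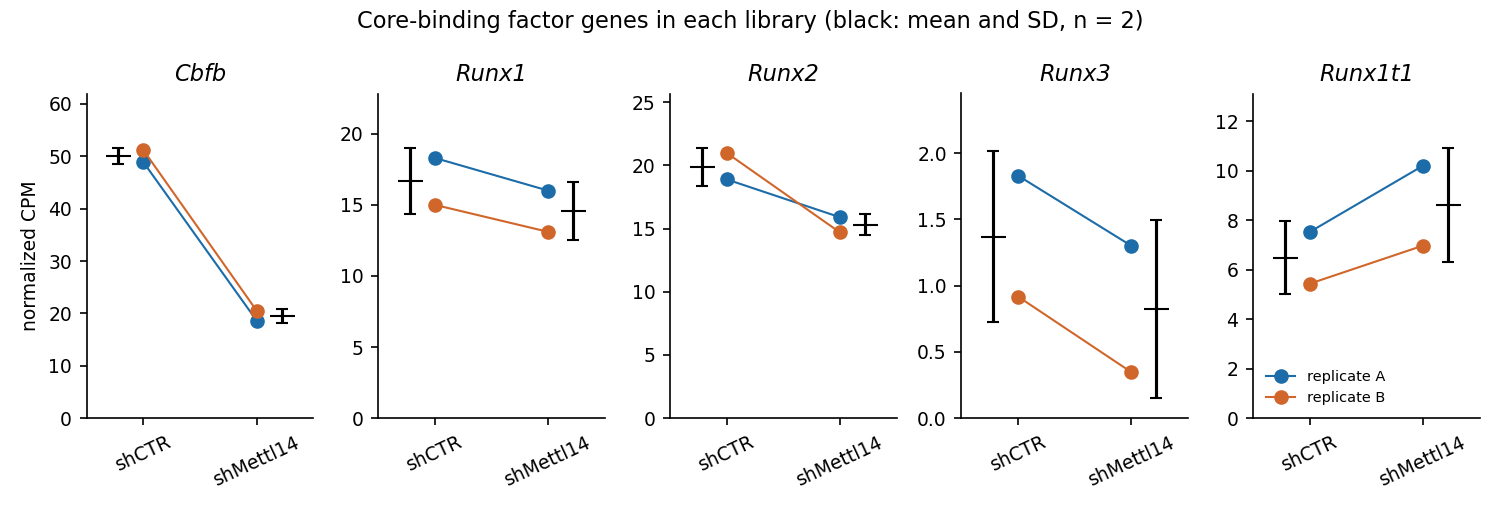
Normalized CPM (vertical axis, linear and from 0, a scale of its own in each panel) of Cbfb, Runx1, Runx2, Runx3 and Runx1t1 in the 2 shCTR and 2 shMettl14 libraries. Coloured points are libraries, lines join libraries of the same letter, and black marks are the mean and SD (n = 2). Cbfb lies near 50.1 CPM with shCTR and 19.5 CPM with shMettl14, and the groups overlap for Runx1, Runx3 and Runx1t1 but not for Cbfb and Runx2.

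None of the 4 other genes had an unadjusted p under 0.05. In the fit across all genes 1.01% of the genes tested were lower and 0.656% higher at that level, and 0.0% passed an adjusted p of 0.05. All 4 passed the filter on low counts, and each had an adjusted p of 1.0. By separation of the libraries, 1 of the 4 genes, Runx2, had both shMettl14 libraries below both shCTR libraries, against 13.3% of all genes tested, and 0 had both above, against 14.7%. By the ratio within each letter, 3 of the 4 were lower in both letters, against 27.7% of all genes tested, and 1 was higher in both, against 30.0%. The median log2 fold change of all genes tested was 0.009. With 2 libraries in each group, the smallest two-sided p of an exact permutation test is 0.333, so no such test was run on single genes.

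Runx2, the osteoblast regulator, was the RUNX gene whose libraries separated by hairpin, a separation seen downward in 13.3% of all genes tested. It had 2144 and 2270 counts in shCTR A and B and 1887 and 1914 counts in shMettl14 A and B, which are 18.9 and 21 CPM against 15.9 and 14.7 CPM. Both shMettl14 libraries were thus below both shCTR libraries, by a margin smaller than for Cbfb. The mean was 19.9 ± 1.51 CPM with shCTR and 15.3 ± 0.831 CPM with shMettl14 (SD, n = 2 libraries each), so that the shMettl14 level was 76.7% of the shCTR level. In edgeR this was −0.38 ± 0.22 (log2 fold change and its standard error), with an unadjusted p of 0.14 and an adjusted p of 1.0, and the log2 ratio was −0.25 between the A libraries and −0.51 between the B libraries. Runx2 is also the only other gene of the 5 with GTGTTAA in its 3′ UTR, in the single copy printed above. That word was chosen on these same libraries, and its part in the level of Runx2 was not tested.

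The antisense RNA Runx2os1, which overlaps Runx2 on the other strand, had 42 and 0 counts in shCTR A and B and 47 and 44 counts in shMettl14 A and B. The library shCTR B thus stood apart at 0, and the other 3 libraries were alike. Even if every one of these reads came from Runx2, they would be few beside its counts. Reads of the shared stretch left out of both rows would not show in these counts, and this was not tested. The neighbouring antisense rows Runx2os2 and Runx2os3 had at most 23 and 1 counts in any library.

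Runx1, the regulator of blood formation that is also present in mesenchymal cells, was tested with a similar depth of counts. It had 2079 and 1621 counts in shCTR A and B and 1900 and 1705 counts in shMettl14 A and B, which are 18.3 and 15 CPM against 16.0 and 13.1 CPM. The groups overlapped, with letter A above letter B in both. The mean was 16.7 ± 2.33 CPM with shCTR and 14.6 ± 2.04 CPM with shMettl14 (SD, n = 2 libraries each). The edgeR fit gave a log2 fold change of −0.19 ± 0.25 (standard error, with an unadjusted p of 0.47 and an adjusted p of 1.0), and the log2 ratio was −0.19 within both letters. The difference between letters was larger than that between hairpins, since letter B was below letter A by a log2 ratio of −0.29 in both groups. Leaving out shCTR A or shMettl14 B brought the log2 fold change of Runx1 to −0.04 or −0.05, and leaving out shCTR B or shMettl14 A took it to −0.33 or −0.34.

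Runx3 had the fewest counts of the 5 genes. It had 208 and 99 counts in shCTR A and B and 154 and 45 counts in shMettl14 A and B, which are 1.83 and 0.917 CPM against 1.30 and 0.346 CPM. Letter A was above letter B in both groups, and the groups overlapped. The edgeR fit gave −0.74 ± 0.77 (log2 fold change and its standard error, with an unadjusted p of 0.38 and an adjusted p of 1.0), and log2 ratios of −0.49 between the A libraries and −1.36 between the B libraries. Letter B was below letter A by a log2 ratio of −0.99 with shCTR and −1.86 with shMettl14, so that the letters differed more than the hairpins did. The log2 fold change was −1.99 without shMettl14 A, −1.16 without shCTR B, −0.16 without shCTR A and −0.08 without shMettl14 B, and it therefore rests on which libraries are used. The summed leukocyte markers were 15 and 12.8 CPM in shCTR A and B and 11 and 12 CPM in shMettl14 A and B, and their part in the level of Runx3, a gene of T cells, was not tested.

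Runx1t1, the co-repressor, was the only one of the 5 genes whose level was higher with shMettl14 within both letters. It had 854 and 587 counts in shCTR A and B and 1217 and 907 counts in shMettl14 A and B, which are 7.52 and 5.43 CPM against 10.2 and 6.97 CPM. The groups overlapped, since shMettl14 B was below shCTR A. The mean was 6.48 ± 1.47 CPM with shCTR and 8.61 ± 2.32 CPM with shMettl14 (SD, n = 2 libraries each). The edgeR fit gave 0.41 ± 0.35 (log2 fold change and its standard error, with an unadjusted p of 0.29 and an adjusted p of 1.0), and log2 ratios of 0.45 between the A libraries and 0.36 between the B libraries. It ranged from 0.11 without shMettl14 A and 0.19 without shCTR B to 0.67 without shCTR A or without shMettl14 B.

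**Figure D2:**
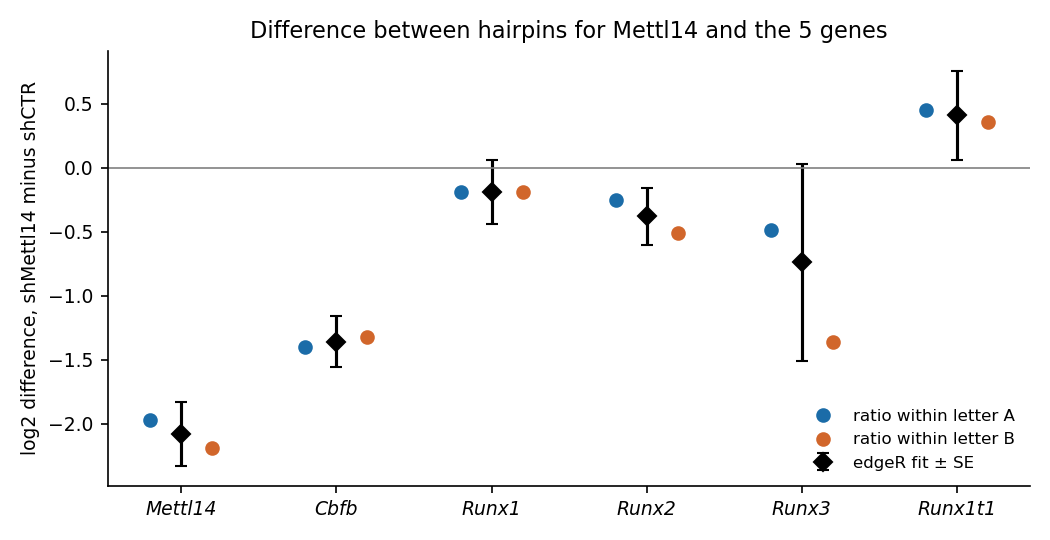
Log2 difference between shMettl14 and shCTR (vertical axis) for Mettl14 and the 5 genes. Black diamonds are the edgeR log2 fold change with its standard error, and coloured points are the ratios within letters A and B. Cbfb is at −1.36 and its ratios within the letters are close together, whereas the ratios of Runx3 are −0.49 and −1.36.

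A level can be compared between genes only per length, so CPM were divided by the kilobases of 1 chosen transcript per gene. Per kilobase, Cbfb was at 17.0 and 17.7 in shCTR A and B and at 6.45 and 7.11 in shMettl14 A and B. Runx1 was at 3.12 and 2.56 in shCTR A and B and at 2.73 and 2.24 in shMettl14 A and B, and Runx2 at 3.20 and 3.56 against 2.69 and 2.50 in the same order. Cbfb was above either of them in every library, whereas the ranges of Runx1 and Runx2 over the 4 libraries overlapped. The order of these 2 genes depends on the length used. With the union of all annotated exons Runx1 was between 1.09 and 1.52 CPM per kilobase and Runx2 between 1.67 and 2.38, so that Runx2 was higher in every library. Runx1t1 came next, at 2.27 and 1.64 CPM per kilobase in shCTR A and B and 3.09 and 2.10 in shMettl14 A and B, where its range overlapped those of Runx1 and Runx2. Runx3 was lowest, between 0.0891 and 0.471 CPM per kilobase in the 4 libraries.

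The 3 genes with a Runt domain that CBFB can bind, Runx1, Runx2 and Runx3, summed to 6.79 and 6.36 CPM per kilobase in shCTR A and B and to 5.76 and 4.82 in shMettl14 A and B. The ratio of Cbfb to this sum was 2.50 and 2.79 in shCTR A and B and 1.12 and 1.48 in shMettl14 A and B. Cbfb mRNA was thus above the summed RUNX mRNA in every library, by less with shMettl14. With the union of all annotated exons as the length, a choice made after the values had been seen, the ratio was 3.49 and 3.86 with shCTR and 1.58 and 2.09 with shMettl14. The summed RUNX level was lower with shMettl14 as well, which by itself would raise the ratio. The lower ratio thus comes from Cbfb, which was chosen for its lower level, and mRNA ratios do not give protein ratios. Runx1 made up between 40.3% and 47.4% of the sum in the 4 libraries, Runx2 between 46.8% and 56.0%, and Runx3 between 1.85% and 6.94%. With the union of exons the shares were 32.8% to 39.3% for Runx1, 53.1% to 62.4% for Runx2 and 2.45% to 9.10% for Runx3.

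**Figure D3:**
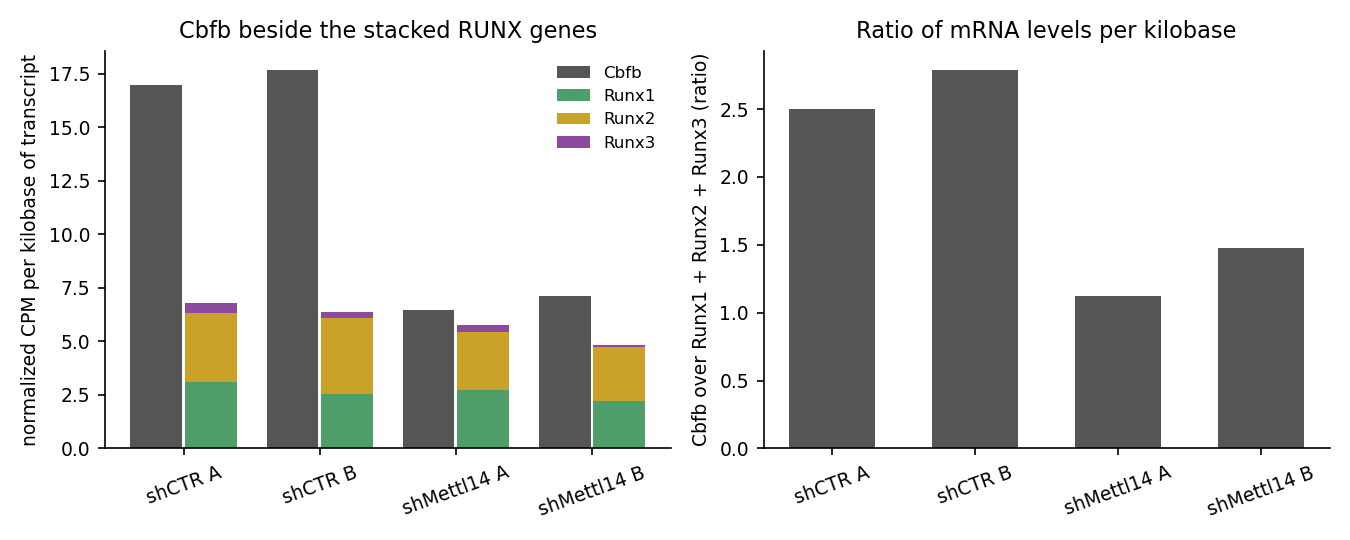
Left, normalized CPM per kilobase of transcript (vertical axis, from 0) of Cbfb (grey) beside the stacked levels of Runx1, Runx2 and Runx3 in each of the 4 libraries. Right, the ratio of Cbfb to the summed RUNX genes, at 2.50 and 2.79 in the shCTR libraries and 1.12 and 1.48 in the shMettl14 libraries.

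Genes of the proteins that work with CBFB and RUNX were then read from lists, with the same fit across all genes. In none of the lists did a gene pass an adjusted p of 0.05 in either direction. Prmt1, Tle3, Smad5, Stub1 and Mapk3 were named for lying at the ends of their lists, with the same sign within both letters. Their separation and unadjusted p therefore follow in part from this choice. Of all genes tested, 13.3% had both shMettl14 libraries below both shCTR libraries and 14.7% had both above. All 26 co-repressor and co-activator genes were tested. Of these, 1 was lower and 0 higher at an unadjusted p under 0.05, against 1.01% and 0.656% of all genes tested, and the median log2 fold change was −0.10 against 0.009 over all genes tested. The gene with the lower level was Prmt1, an arginine methyltransferase that modifies RUNX1, at 121 and 113 CPM in shCTR A and B and 75.6 and 86.3 CPM in shMettl14 A and B. Both shMettl14 libraries of Prmt1 were below both shCTR libraries (log2 fold change −0.53 ± 0.19, standard error, edgeR unadjusted p = 0.041, adjusted p = 1.0). Tle3, a Groucho co-repressor that RUNX proteins recruit, was at 48.4 and 53.2 CPM against 55.3 and 63.7 CPM in the same order, so that the groups did not overlap, with an unadjusted p of 0.30 from edgeR. The relatives of Runx1t1 in the ETO family were close to their control levels. Cbfa2t2 had a log2 fold change of 0.05 (standard error 0.19) and Cbfa2t3 of −0.16 (standard error 0.29), and both hold GTGTTAA in the 3′ UTR.

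Of 30 partner and antagonist factors of RUNX2, 28 were tested, 0 had an unadjusted p under 0.05, and the median log2 fold change was −0.05. Smad5, a BMP signal transducer that acts with RUNX2, was at 42.9 and 42.8 CPM in shCTR A and B and 54.8 and 61.8 CPM in shMettl14 A and B, so that both shMettl14 libraries were higher (log2 fold change 0.45, standard error 0.19, unadjusted p = 0.067 from edgeR). Hey1, a Notch target that represses RUNX2, was at 4.53 and 2.04 CPM against 6.54 and 3.87 CPM in the same order, with overlapping groups. All 22 genes of RUNX stability and modification were tested, of which 1 was lower and 0 higher at an unadjusted p under 0.05, again against 1.01% and 0.656% of all genes tested, and the median was 0.04. The lower gene was Stub1, a ubiquitin ligase also called CHIP that degrades RUNX proteins, at 50.1 and 61.2 CPM in shCTR A and B and 39.8 and 29.8 CPM in shMettl14 A and B (log2 fold change −0.68 ± 0.25, standard error, edgeR unadjusted p = 0.040, adjusted p = 1.0). Mapk3, the kinase ERK1, was at 269 and 250 CPM against 200 and 189 CPM in the same order (unadjusted p = 0.075 from edgeR). The cytoplasmic partners of CBFB, Flna, Hnrnpk and Eif4b, had log2 fold changes between −0.06 and 0.09. GTGTTAA was found 0 times in the 3′ UTRs of Prmt1, Tle3, Smad5, Hey1, Stub1 and Mapk3. Other genes of these lists held it. Carriers were 1 of the 26 co-repressor and co-activator genes, 5 of the 28 partner and antagonist factors and 2 of the 22 stability genes. Of all tested genes with a 3′ UTR of at least 50 bases, 10.58% held the word.

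Targets of RUNX proteins in bone and cartilage were at very different levels in these cells. Of 22 skeletal targets 20 were tested, 0 had an unadjusted p under 0.05, and the median log2 fold change was −0.09. Spp1, which encodes osteopontin, was at 34.6 and 29.1 CPM in shCTR A and B and 23.1 and 12 CPM in shMettl14 A and B. Its groups did not overlap, and the edgeR fit gave −0.86 ± 0.37 (log2 fold change and standard error, unadjusted p = 0.066, adjusted p = 1.0), with log2 ratios of −0.58 and −1.28 within letters A and B. It was −0.46 without shMettl14 B and −1.41 without shMettl14 A. Mmp13, a collagenase, was at 0.836 and 3.20 CPM against 0.589 and 0.876 CPM in the same order, where the groups overlapped and shCTR B stood above the other libraries (log2 fold change −1.46, standard error 0.74, unadjusted p = 0.11 from edgeR). The log2 fold change of Mmp13 was −0.19 without shCTR B and −2.12 without shCTR A. The 3′ UTR of Mmp13 held 1 copy of GTGTTAA, and 2 of the 20 tested skeletal targets held the word. Tnfrsf11b, which encodes the decoy receptor osteoprotegerin, was abundant and differed by letter, at 260 and 101 CPM with shCTR and 266 and 101 CPM with shMettl14 in A and B. The osteoblast genes Bglap, Sp7 and Alpl were at 0.278 CPM or below in every library, and the osteocyte and osteoblast genes Ibsp and Dmp1 were at 0.202 CPM or below, unlike the cartilage genes given above.

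Most targets in blood cells did not pass the filter on low counts. The most abundant was Zbtb7b, at 84.4 and 64.2 CPM in shCTR A and B and 85.5 and 62.3 CPM in shMettl14 A and B. Of 27 haematopoietic targets of RUNX1 and RUNX3, 10 were tested, 0 had an unadjusted p under 0.05, the median log2 fold change was 0.01, and Gfi1b, Ifng and Gzmb had 0 counts in all libraries. Csf1r, the receptor of macrophage colony-stimulating factor, was at 4.11 and 2.13 CPM in shCTR A and B and 3.28 and 1.49 CPM in shMettl14 A and B, with overlapping groups. Spi1, the myeloid factor PU.1, was at most 0.146 CPM in any library and did not pass the filter. The leukocyte marker Ptprc was at 0.819 and 0.241 CPM with shCTR and 0.514 and 0.431 CPM with shMettl14 in A and B.

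**Figure D4:**
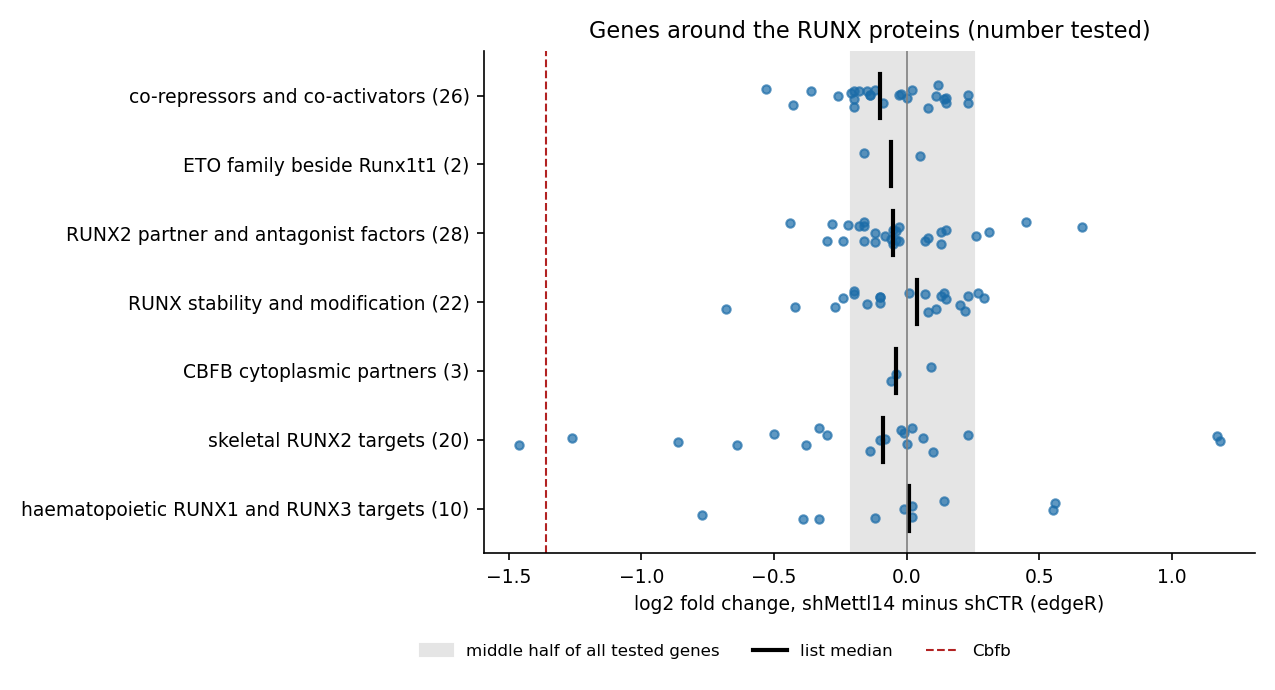
Log2 fold change between shMettl14 and shCTR (horizontal axis) of every tested gene in 7 lists around the RUNX proteins, 1 point per gene, with vertical scatter only for legibility. Black bars are list medians, which lie between −0.10 and 0.04, the grey band spans the first to the third quartile of all genes tested (−0.21 to 0.25), and the dashed line marks Cbfb at −1.36.

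The value of Cbfb changed little with the processing. Its log2 fold change was between −1.37 and −1.34 under another test, normalization, filter or block, and between −1.42 and −1.29 when each library was left out in turn. The direction of the 4 other genes was also kept under each of these alternatives. Runx2 stayed between −0.45 and −0.31, whereas Runx1, Runx3 and Runx1t1 moved with the library left out, as given above.

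**Figure D5:**
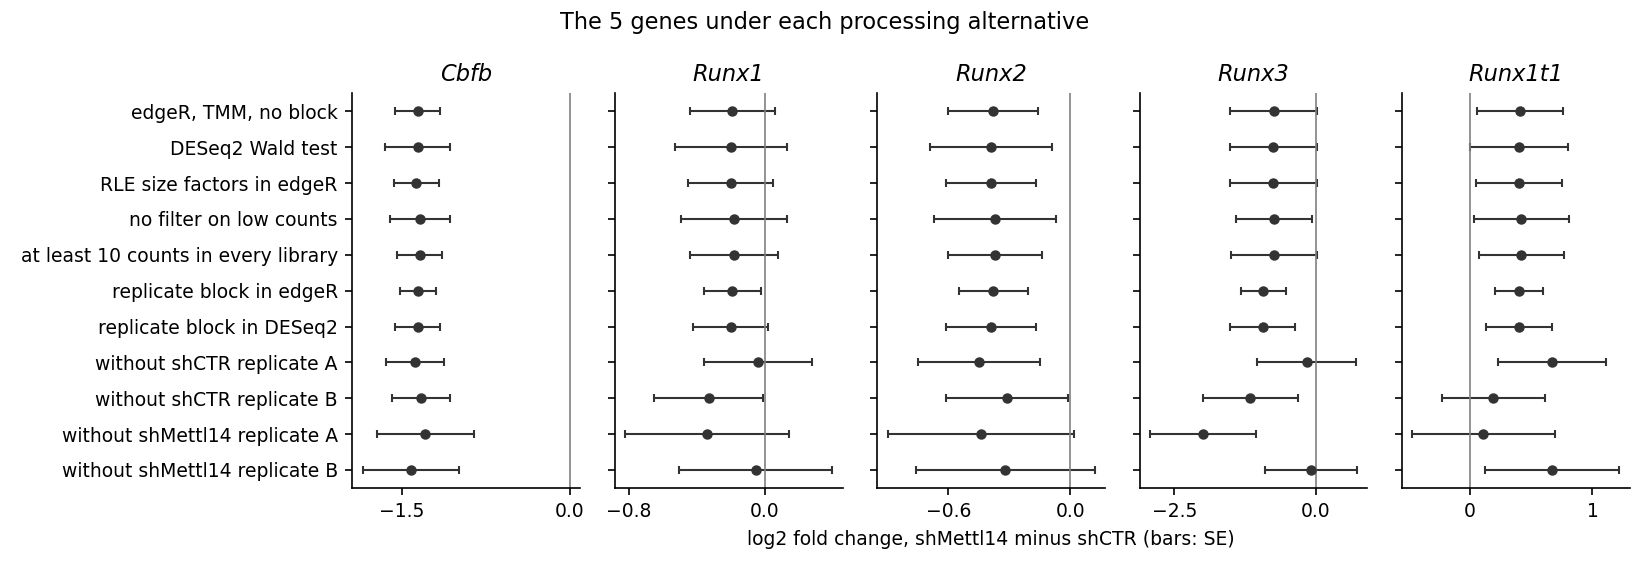
Log2 fold change with its standard error (horizontal axes, a scale of its own in each panel) of the 5 genes under each processing alternative (rows). The points of Cbfb stay between −1.42 and −1.29, whereas those of Runx3 range from −1.99 to −0.08.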

How the data were processed

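The deposited values are raw read counts per gene symbol in 1 table of 4 libraries, without normalization. The authors prepared stranded poly-A libraries, mapped the read pairs with STAR to mm10 (GRCm38) and counted them with featureCounts. The strand setting and the treatment of reads with several places are not given in the sources used here. Counts of shMettl14 were compared with those of shCTR in edgeR 4.0.16 (R 4.3.3) with TMM factors, filterByExpr, a robust quasi-likelihood fit without a block and Benjamini-Hochberg adjustment over 18916 genes, with an adjusted p under 0.05 as the threshold. Standard errors were obtained from the log2 fold change and the square root of its F statistic. Ratios within a letter used log2 CPM with a prior count of 2. The fits were tested on simulated data. Where the simulated letters differed as measured, the fit without a block missed the changed genes that the block recovered. A lack of calls thus does not show a lack of differences. Each letter difference was simulated alike in both groups, as the block assumes, so the simulation cannot tell whether the block suits these libraries. No 2 libraries agreed within sampling noise (chi-square per gene from 127 to 593). The lowest values were between the hairpins of the same letter, 127 for A and 197 for B. Between the letters they were 593 for shCTR and 289 for shMettl14. Of the symbols, 46384 matched 1 gene of GENCODE M21, from which sequences, lengths and overlaps were read. Python 3.11.15 with pandas 2.3.3 and numpy 2.4.6 did the remaining steps, and matplotlib 3.10.9 drew the plots.

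The members and lists were chosen with earlier results of these data known. The genes named were Mettl14, the 5 genes, per list up to 2 genes with the highest and 2 with the lowest log2 fold change among those with a mean of at least 1 CPM and the same sign within both letters, the 5 profiles nearest to Cbfb with a mean of at least 10 CPM, and Spp1, Bglap, Sp7, Alpl, Tnfrsf11b, Mmp13, Spi1, Csf1r and Ptprc whatever their values. Of the genes that this rule picks, 1 is not reported here. Runx2os1 to Runx2os3 were examined as overlapping genes. Single marker genes, Dlx6 and Zbtb7b were named for their levels. Alternatives were DESeq2 1.42.0, RLE factors, no filter on low counts, a minimum of 10 counts per library, a replicate block by letter in edgeR and DESeq2, and each library left out in turn. A group left with 1 library was assumed to vary like the other.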

Additional observations from a re-analysis of the deposited data

How the results depend on the processing

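Depth does not limit Cbfb, Runx1 or Runx2, whereas Runx3 rests on 45 to 208 counts per library, and the 2 libraries per group limit all results. Of the genes tested, 0 had an adjusted p under 0.05 in edgeR, also with RLE factors and with either filter. DESeq2 gave 5 such genes, the replicate block in edgeR 9 and the replicate block in DESeq2 114, of which 85 were lower and 29 higher with shMettl14. The block is an alternative because nothing says that a letter stands for a common culture or day, although deviations of libraries with the same letter correlated (0.58 across genes) and the common dispersion was 0.0418 with the block and 0.178 without it. With the replicate block in edgeR the unadjusted p was 0.28 for Runx1, 0.049 for Runx2, 0.042 for Runx3 and 0.071 for Runx1t1, where 5.55% of all genes tested were lower and 4.72% higher at an unadjusted p under 0.05, and the log2 fold change of Runx3 was −0.93. In the lists only the skeletal targets had a call, 1 gene (Spp1, log2 fold change −0.94, adjusted p = 0.015) with the replicate block in DESeq2. The cause of these shifts was not tested. With each library left out in turn the log2 fold change ranged from −0.34 to −0.04 for Runx1, −0.45 to −0.31 for Runx2, −1.99 to −0.08 for Runx3 and 0.11 to 0.67 for Runx1t1. Of 25 named list genes tested, 15 changed sign under at least 1 alternative, and 2 did so with no library left out. These were Bglap (0.09 and 0.14 with the replicate block in edgeR and DESeq2) and Ptprc (0.051 and 0.062). With each library left out, the log2 fold change ranged from −0.69 to 1.02 for Bglap, −2.04 to 0.22 for Sp7, −0.97 to 0.82 for Alpl, −0.84 to 0.87 for Tnfrsf11b, −1.06 to 0.17 for Csf1r and −0.80 to 0.97 for Ptprc. It ranged from −0.96 to 0.13 for Hdac5, −0.10 to 0.37 for Tle2, −1.80 to 0.37 for Hand2, −0.082 to 0.74 for Skp2 and −0.047 to 0.69 for Usp9x. It ranged from −0.15 to 0.037 for Hnrnpk, −0.10 to 0.26 for Eif4b, −0.75 to 1.22 for Col10a1 and −0.74 to 0.34 for Enpp1.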
